A study of Mus musculus with 6 samples.

Results

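The small proline-rich (Sprr) genes were followed in skin RNA of 3 wild-type (WT) mice and 3 LynDN transgenic mice. The 10 members were taken by gene symbol: Sprr1a, Sprr1b, Sprr2a1, Sprr2b, Sprr2d, Sprr2e, Sprr2f, Sprr2g, Sprr2h and Sprr3. All 10 had a row, each from 1 probe, among 18617 named genes and 22879 rows in all. Lyn is a tyrosine kinase of the Src family, spelled LynDeltaN for this transgene in the title of the series. LynDN mouse 1 was set against WT mouse 1 (pair 1), LynDN mouse 2 against WT mouse 3 (pair 2) and LynDN mouse 3 against WT mouse 2 (pair 3). Each pair was hybridised on 2 arrays of 2 colours, with Cy3 and Cy5 swapped between them, for a total of 6 arrays. The labels do not say which promoter or cell type drives the transgene, or the age, sex and strain of the mice.

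Sprr proteins are precursors of the cornified envelope, the protein shell under the membrane of dead surface keratinocytes. Their glutamine- and lysine-rich ends are joined by transglutaminases to loricrin, involucrin and to one another, while a proline-rich repeat lies between these ends. The genes lie together in the epidermal differentiation complex on mouse chromosome 3. Sprr1 and Sprr2 genes are known to be low in resting skin between hair follicles and high in wounded, inflamed or hyperplastic epidermis, whereas Sprr3 is best known from the lining of mouth, oesophagus and forestomach.

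Promoter sequence is shown first because Sprr2b, Sprr2d, Sprr2e, Sprr2f and Sprr2h, all with large ratios, share a promoter layout. Sprr2k has it too, with a small ratio, while Sprr2a1 and Sprr1b have large ratios without it. A link between layout and ratio was not tested. For 12 Sprr genes, 9 of them members, a RefSeq start site was matched by symbol, and the 250 bases before that site are described here. These 6 sequences (GRCm38.p6, 5′ to 3′ on the coding strand) were chosen to set genes with large ratios beside relatives with small ones. Capitals mark AP-1 words (TGANTCA), octamer words (ATGCAAAT, or ATTTGCAT on the other strand) and TATA words (TATAAA).
Sprr2d, chr3:92338890-92339139, plus strand: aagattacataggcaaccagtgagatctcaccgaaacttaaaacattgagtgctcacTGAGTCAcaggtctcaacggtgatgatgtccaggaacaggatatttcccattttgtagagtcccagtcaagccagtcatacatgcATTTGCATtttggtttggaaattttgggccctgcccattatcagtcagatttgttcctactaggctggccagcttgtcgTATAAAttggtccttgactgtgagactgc
Sprr2h, chr3:92385435-92385684, plus strand: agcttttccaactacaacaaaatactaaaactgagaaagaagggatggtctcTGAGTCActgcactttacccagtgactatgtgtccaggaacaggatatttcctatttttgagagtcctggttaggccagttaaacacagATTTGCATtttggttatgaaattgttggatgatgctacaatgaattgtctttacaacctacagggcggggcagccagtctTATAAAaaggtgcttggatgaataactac
Sprr2k, chr3:92432332-92432581, plus strand: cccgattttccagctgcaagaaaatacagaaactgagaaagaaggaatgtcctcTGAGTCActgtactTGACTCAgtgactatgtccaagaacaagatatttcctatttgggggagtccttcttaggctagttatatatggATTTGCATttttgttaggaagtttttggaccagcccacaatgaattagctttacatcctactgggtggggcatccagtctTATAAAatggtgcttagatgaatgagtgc
Sprr1b, chr3:92438780-92439029, minus strand: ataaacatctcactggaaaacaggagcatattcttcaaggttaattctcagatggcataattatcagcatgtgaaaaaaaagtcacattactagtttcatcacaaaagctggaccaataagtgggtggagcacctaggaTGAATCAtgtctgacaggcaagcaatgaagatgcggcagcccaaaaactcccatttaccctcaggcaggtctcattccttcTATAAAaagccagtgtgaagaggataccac
Sprr1a, chr3:92485882-92486131, minus strand: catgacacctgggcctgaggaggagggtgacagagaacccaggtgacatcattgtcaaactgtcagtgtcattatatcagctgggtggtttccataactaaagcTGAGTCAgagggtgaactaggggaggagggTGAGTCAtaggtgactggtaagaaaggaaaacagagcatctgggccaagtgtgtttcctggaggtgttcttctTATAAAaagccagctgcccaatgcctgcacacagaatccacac
Sprr3, chr3:92458721-92458970, minus strand: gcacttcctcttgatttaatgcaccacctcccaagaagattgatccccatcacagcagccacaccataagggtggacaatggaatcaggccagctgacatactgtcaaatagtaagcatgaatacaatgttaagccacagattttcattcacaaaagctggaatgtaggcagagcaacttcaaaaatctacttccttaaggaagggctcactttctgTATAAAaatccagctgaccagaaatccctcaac

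Of the Sprr2 promoters, those of Sprr2b, Sprr2d, Sprr2e, Sprr2f, Sprr2h, Sprr2i and Sprr2k had one layout. In these 7 genes an AP-1 word began between positions -198 and -193, counted back from the start site with the base before it as -1. An octamer word began between -112 and -108, and a TATA word at -29. Sprr2k alone of the 7 held a second AP-1 word, at -182. Identity among these 7 promoters ran from 60.4% to 89.2% of the 250 bases, with Sprr2d and Sprr2e the closest, against 41.6% to 56.8% for the other 45 promoter comparisons. Sprr1b held an AP-1 word at -111 and a TATA word at -30. This AP-1 word reads TGAATCA, whereas all other Sprr matches read TGAGTCA or TGACTCA. Sprr1a held AP-1 words at -146 and -116 and a TATA word at -43. The windows of Sprr2a1, Sprr3 and Sprr4 held no AP-1 word, which says only that these letters are not in those windows.

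Searched on both strands, the AP-1 word was in 7 of 9 member promoters, against 6.75% of 32851 RefSeq promoter windows of the same length. The octamer word was in 5 of 9 (1.60% of all windows) and the TATA word in 8 of 9 (12.4%). An Ets core (GGAAG) was in 4 of 9 (64.1%), a CACCC box (CACCC) in 4 of 9 (52.0%), an antioxidant response element (TGACNNNGC) in 2 of 9 (10.2%) and a Stat word (TTCNNNGAA) in 0 of 9 (7.02%). In Sprr1a the antioxidant response word began at -148 and overlaps the first AP-1 word. Sprr2a1 shared 46.0% to 52.8% of bases with the 7 Sprr2 promoters of one layout, within the range of the other comparisons. Sprr2 genes are paralogs, so their matches are not independent.

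**Figure D1:**
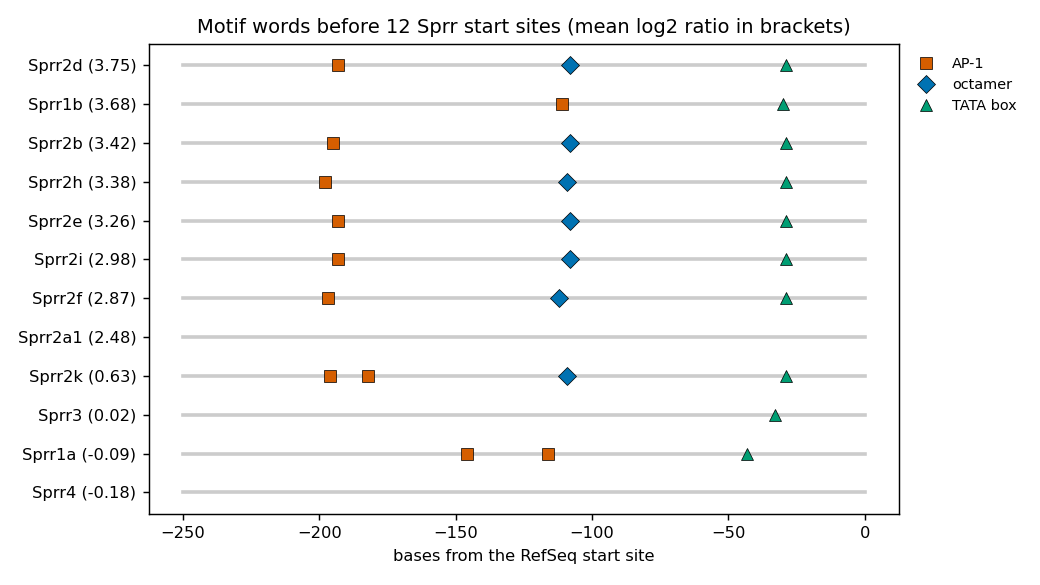
Positions of AP-1, octamer and TATA words in the 250 bases before 12 Sprr start sites; the x axis gives bases from the RefSeq start site, and genes are ordered by mean log2 ratio, given in brackets. Sprr2k, with a mean log2 ratio of 0.63, has AP-1, octamer and TATA words in the same places as Sprr2 genes between 2.87 and 3.75, and a further AP-1 word at -182 that they lack.

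Values are log2 ratios as deposited. The numerator is not stated, so positive and negative mark opposite sides of the comparison, and every sign would turn if WT were the numerator. Folds assume base 2. The unit of replication was the mouse pair (n = 3), each pair value being the mean of its 2 arrays. Pair 1 stood apart from the others in sex-linked genes: Eif2s3y, on the Y chromosome, had 3.50 there and 0.00 and 0.03 in the other pairs, and Xist had -1.06 there and -0.09 and -0.14 elsewhere. Of the other Y-linked genes, Kdm5d had 1.24 there and -0.05 and 0.13 elsewhere, while Uty did not set pair 1 apart (0.07, 0.13 and -0.48 in pairs 1, 2 and 3). The 2 arrays of pair 1 also agreed least: over the 25344 probes, which are not independent, Pearson's r between them was 0.004 (Spearman's rho -0.186), against 0.442 (0.127) in pair 2 and 0.435 (0.15) in pair 3. Results are therefore also given without pair 1.

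Most Sprr genes lay far to the positive side. Of the 10 members 8 had mean log2 ratios from 2.48 to 3.80, or 5.57-fold to 13.9-fold, while Sprr1a (-0.09) and Sprr3 (0.02) lay near 0. A mean above 0 was found in 9 members and 43.9% of all rows, and a mean below 0 in 1 member and 56.1% of all rows. The member median was 3.32 against -0.01 over all rows, and 7 members were among the 20 rows with the highest means. The same 8 members were positive on 6 of 6 arrays, as were 3.72% of all rows, and all 8 had a mean of at least 2 on the log2 scale, as did 0.157%. At least 1 on the positive side was likewise reached by 8 members (background 0.520%), and at least 1 on the negative side by 0 (background 0.0787%).

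In limma on the 3 pair values 0 of 10 members passed at an adjusted p of 0.05 (background 0.0175% positive), with adjusted p from 0.0926 to 0.892. At an unadjusted p under 0.05 the count was 8, all positive (background 5.92% positive and 6.41% negative). In a fit of all 6 arrays that took the mouse pair as a random block and had a dye term, 8 of 10 passed, all positive (background 0.603%). That fit gave all rows 1 correlation within pairs (0.151). Sprr genes vary mostly between pairs, so its p-values can be too small for them. For Sprr2g its standard error was 0.539, against 0.657 on the pair values. In limma without pair 1, on pairs 2 and 3 alone, 8 of 10 passed as well, all positive (background 3.22%). The pair left out there was the lowest pair in each of these 8. Without pair 2 or pair 3 the count was 0 (backgrounds 0.00874% and 0.0175%). Bulk skin cannot tell more Sprr-expressing cells from more Sprr RNA per cell.

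**Figure D2:**
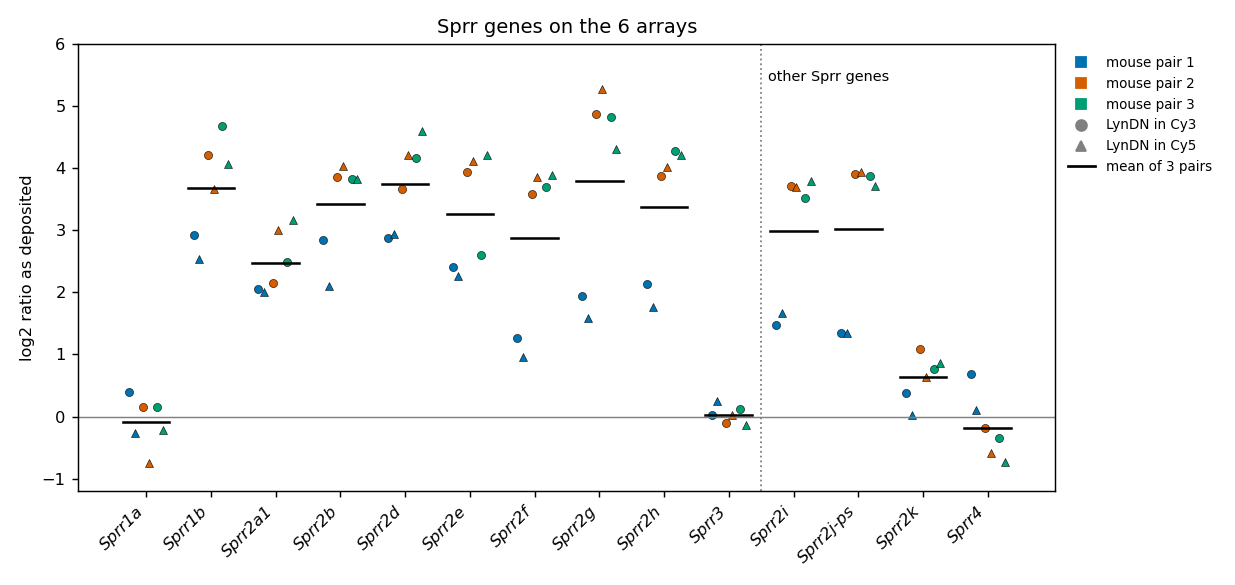
Log2 ratio as deposited (y axis) of each Sprr gene on the 6 arrays, coloured by mouse pair; circles are arrays with LynDN in Cy3, triangles arrays with LynDN in Cy5, and bars the mean of 3 pairs. The 8 members other than Sprr1a and Sprr3 lie between 0.96 and 5.27 on every array, and pair 1 is the lowest pair in each of them.

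The pair of Sprr1 genes was split. Sprr1b, an envelope precursor of stratified epithelia, gave 2.92 and 2.53 (pair 1), 4.22 and 3.67 (pair 2), then 4.68 and 4.07 (pair 3), where the first value of each pair is the array with LynDN in Cy3. All arrays were high, and the array with LynDN in Cy3 was the higher one in every pair. Its mean log2 ratio was 3.68 ± 0.85 (SD, n = 3; limma adjusted p = 0.123, and 0.00233 with the pair as a block).

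Sprr1a, its closest relative by name and also known from injured neurons, gave 0.40 and -0.27 (pair 1), 0.15 and -0.75 (pair 2), then 0.15 and -0.22 (pair 3). Its sign followed the dye and not the mice, as in 11.4% of all rows, and the dye difference did not pass limma (adjusted p = 0.0798; background 0.573%). The mean was -0.09 ± 0.19 (SD, n = 3; limma adjusted p = 0.700). Sprr1b exceeded Sprr1a by 2.66, 4.24 and 4.41 on the log2 scale in pairs 1, 2 and 3 (mean 3.77 ± 0.96, SD). An exact two-sided sign-flip permutation test gave p = 0.25, the smallest that 3 pairs allow. The promoters of both genes hold AP-1 and TATA words and share 56.8% of bases. Spot intensities were not used here, so the brightness of the Sprr1a spot was not analysed.

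Among the 7 Sprr2 members all were positive on 6 of 6 arrays, with a median log2 ratio of 3.38. Sprr2d, the member with the highest pair 1 mean (2.91), gave 2.88 and 2.94 (pair 1), 3.67 and 4.22 (pair 2), then 4.17 and 4.60 (pair 3). Its mean was 3.75 ± 0.76 (SD, n = 3; limma adjusted p = 0.116, and 0.00137 with the block), or 13.4-fold. Sprr2a1 gave 2.05 and 2.01 (pair 1), 2.15 and 3.01 (pair 2), then 2.49 and 3.17 (pair 3). It was the Sprr2 member with the smallest mean and the smallest spread, 2.48 ± 0.41 (SD, n = 3), and the member with the smallest p (limma adjusted p = 0.0926, and 0.00137 with the block). RefSeq lists Sprr2a2 and Sprr2a3 as further copies of this gene, and 0 probes were named for either, so the row may hold RNA of all of them.

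Sprr2b gave 2.85 and 2.11 (pair 1), 3.85 and 4.03 (pair 2), then 3.83 and 3.83 (pair 3), with a mean of 3.42 ± 0.81 (SD, n = 3). Sprr2e gave 2.41 and 2.26 (pair 1), 3.94 and 4.11 (pair 2), then 2.60 and 4.21 (pair 3), with a mean of 3.26 ± 0.85 (SD, n = 3). Its dye swap of pair 3 differed by 1.61, the widest gap within a dye swap among the members, for which the median was 0.36 (0.18 over all rows). Limma gave adjusted p = 0.123 for Sprr2b and 0.130 for Sprr2e, and 0.00268 and 0.00684 with the block.

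Sprr2f, Sprr2g and Sprr2h had the widest spread between mouse pairs. Sprr2g, which RefSeq classes as a transcribed pseudogene, gave 1.94 and 1.58 (pair 1), 4.88 and 5.27 (pair 2), then 4.83 and 4.31 (pair 3). It combined the highest mean of all members with the largest SD, 3.80 ± 1.79 (n = 3; limma adjusted p = 0.255, and 0.0277 with the block). Sprr2f gave 1.26 and 0.96 (pair 1), 3.58 and 3.85 (pair 2), then 3.70 and 3.89 (pair 3), with a mean of 2.87 ± 1.53 (SD, n = 3; limma adjusted p = 0.273, and 0.0407 with the block). Sprr2h gave 2.13 and 1.77 (pair 1), 3.88 and 4.02 (pair 2), then 4.28 and 4.21 (pair 3), with a mean of 3.38 ± 1.25 (SD, n = 3; limma adjusted p = 0.237, and 0.0141 with the block). In these genes, as in the other 5 members with large ratios, both arrays of pair 1 lay below all 4 arrays of the other pairs.

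Sprr2 genes are close paralogs. Binding of one gene's RNA to another's probe was not tested, since probe sequences were not used here, so the members are not separate lines of support for one another. The order of their means cannot be settled by an exact test on 3 pairs, which cannot go below p = 0.25. The Sprr2 members with the highest and lowest mean, picked by these same values, did not keep one order in all pairs. Sprr2g exceeded Sprr2a1 by 1.32 ± 1.43 (SD, n = 3), with -0.27, 2.50 and 1.74 in pairs 1, 2 and 3 (exact sign-flip permutation p = 0.50). Sprr2d exceeded Sprr2a1 in every pair, by 0.88, 1.37 and 1.55 (mean 1.27 ± 0.35, SD; exact sign-flip permutation p = 0.25, the smallest possible). Any difference with the same sign in all 3 pairs gives this p.

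Sprr3 gave 0.02 and 0.25 (pair 1), -0.11 and 0.03 (pair 2), then 0.12 and -0.14 (pair 3). These values lay on both sides of 0, with a mean of 0.02 ± 0.09 (SD, n = 3; limma adjusted p = 0.892). Spot intensities were not used, so a ratio near 0 does not show whether Sprr3 RNA was detected. Sprr1b exceeded Sprr3 by 2.59, 3.99 and 4.39 in pairs 1, 2 and 3 (exact sign-flip permutation p = 0.25, the smallest possible).

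The mouse pairs differed in how large the Sprr ratios were. The member median was 1.99 in pair 1, 3.94 in pair 2 and 3.81 in pair 3, and pair 1 was the lowest pair in 8 of 10 members. In the 8 large-ratio members, the mean of pairs 2 and 3 exceeded pair 1 by 0.67 (Sprr2a1) to 3.06 (Sprr2g) on the log2 scale, with a median of 1.42. Pairs 2 and 3 exceeded pair 1 by at least 1 in 7 of 10 members and in 0.887% of all rows. Over the 36 rows with a mean of at least 2, members included, the median excess was 1.79 and the range -0.17 to 3.11. A lower ratio in pair 1 was thus found in other rows with large ratios, but not in all of them. The alarmin gene S100a9, the row with the highest mean (5.54), had an excess of -0.17, and S100a8 (mean 4.61) had 0.21. Pairs 2 and 3 differed from each other by -0.44 to 0.62 in the 10 members. For Sprr2g the fold was 3.39 in pair 1 and 28.3 over pairs 2 and 3, whereas for Sprr2a1 it was 4.08 and 6.52. Of 4 sex-linked genes, Eif2s3y, Kdm5d and Xist also set pair 1 apart and Uty did not, and the part of sex in the difference was not tested. The 2 arrays of pair 1 also agreed least over all probes (Pearson's r 0.004), and the part of this in the difference was not tested.

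**Figure D3:**
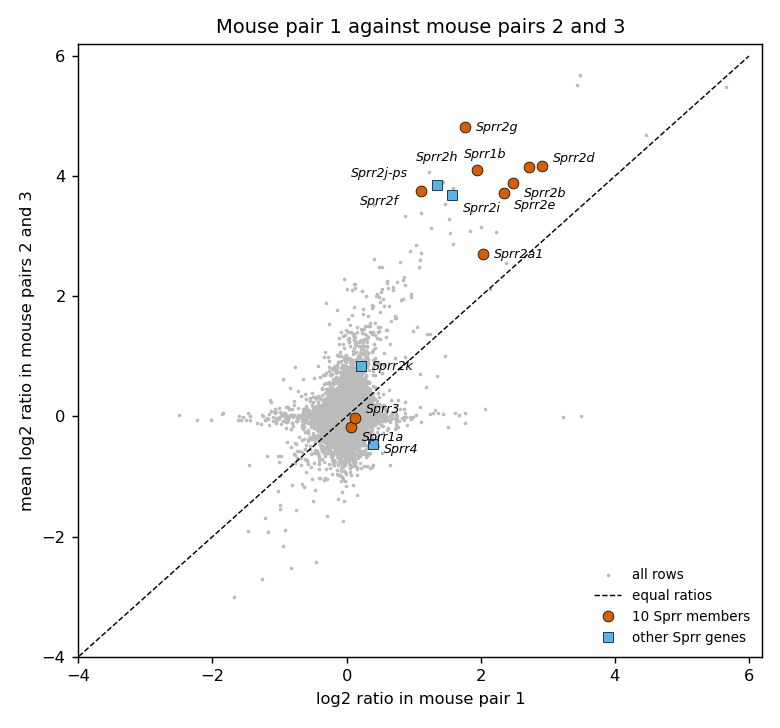
Log2 ratio in mouse pair 1 (x axis) against the mean log2 ratio in mouse pairs 2 and 3 (y axis) for all 22879 rows (grey), the 10 Sprr members (orange circles) and the other Sprr genes (blue squares); the dashed line marks equal ratios. The 8 members with large ratios lie above the line, from 0.67 for Sprr2a1 to 3.06 for Sprr2g, and Sprr1a and Sprr3 lie near the origin.

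The other Sprr genes with a row were Sprr2i, Sprr2j-ps, Sprr2k and Sprr4, and 2 of these 4 passed positive with the block (background 0.603%). Sprr2i gave 1.48 and 1.66 (pair 1), 3.72 and 3.70 (pair 2), then 3.52 and 3.79 (pair 3), with a mean of 2.98 ± 1.22 (SD, n = 3; limma adjusted p = 0.237, and 0.0207 with the block). Sprr2j-ps, a transcribed pseudogene in RefSeq, had 1.35, 3.92 and 3.79 in pairs 1, 2 and 3 (mean 3.02 ± 1.45, SD; limma adjusted p = 0.258, and 0.0288 with the block). In both, as in the Sprr2 members, pair 1 lay below the others.

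Sprr2k had 0.21, 0.87 and 0.81 in pairs 1, 2 and 3 (mean 0.63 ± 0.37, SD, n = 3; limma adjusted p = 0.278, and 0.0726 with the block). Its promoter shares 81.2% of bases with that of Sprr2h, yet Sprr2h exceeded it by 1.74, 3.09 and 3.43 in pairs 1, 2 and 3 (exact sign-flip permutation p = 0.25, the smallest possible). This comparison was picked after the values were seen. Sprr4 had 0.39, -0.39 and -0.53 in pairs 1, 2 and 3 (mean -0.18 ± 0.50, SD, n = 3), so its sign was opposite in pair 1. Without pair 1 both passed in limma, Sprr2k at 0.84 (adjusted p = 0.00559) and Sprr4 at -0.46 (adjusted p = 0.0352). The backgrounds there were 3.22% positive and 1.67% negative. That fit rests on pairs 2 and 3 alone and leaves out the pair that differed most from the others in both genes.

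Along the chromosome the genes with large ratios lay side by side. In RefSeq order (GRCm38.p6) the measured genes run Sprr2a1, Sprr2b, Sprr2d, Sprr2e, Sprr2f, Sprr2g, Sprr2h, Sprr2i, Sprr2j-ps, Sprr2k, Sprr1b, Sprr3, Sprr1a and Sprr4, with 0 other measured genes between them. All genes from Sprr2a1 to Sprr1b apart from Sprr2k had means of at least 2.48, and the last 3 genes in this order lay between -0.18 and 0.02. The measured neighbours on the outside were Lelp1 (-0.06) and involucrin (Ivl, -0.39). A mean of at least 1 (background 0.520%) was reached by 2 of the 25 measured genes before the run, the alarmin genes S100a8 and S100a9. Of the 25 after it 3 did so, Lce3b (2.52), Lce3c (1.79) and repetin (Rptn, 4.94). On the other side, 1 gene before the run (loricrin, Lor) and 3 after it (Lce1m, Flg and Lce1c) had a mean of -1 or below (background 0.0787%). These neighbours had medians of -0.02 and -0.10, against 3.00 for the 14 Sprr genes.

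**Figure D4:**
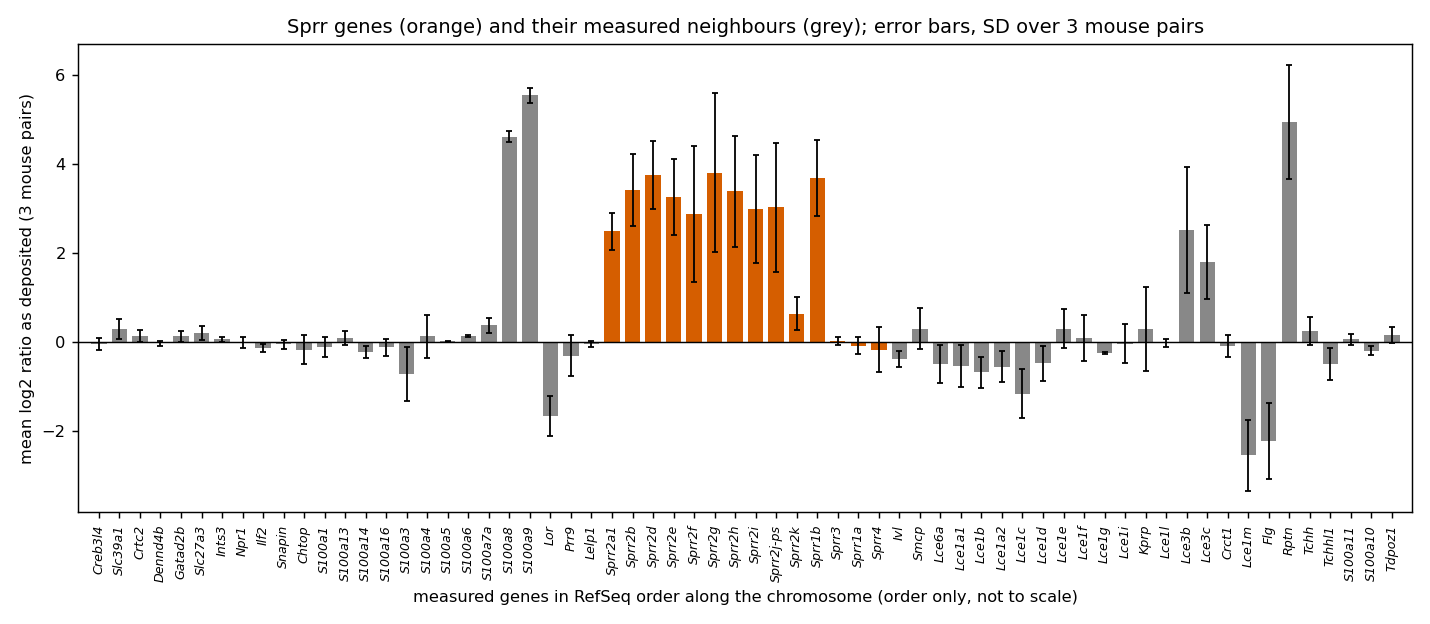
Mean log2 ratio as deposited (y axis) of the 14 measured Sprr genes (orange) and 25 measured genes on each side (grey) in RefSeq order (x axis, order only); error bars are the SD over 3 mouse pairs. Sprr2a1 to Sprr1b form a block of bars at 2.48 or above broken by Sprr2k (0.63), and Sprr3, Sprr1a and Sprr4 lie near 0.

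The proteins that Sprr proteins are joined to in the envelope lay on both sides. Of 28 measured structural partners, 0 passed in limma on the pair values, and with the block 3 passed positive (background 0.603%) and 4 negative (background 0.459%), with a list median of -0.07. Repetin had 4.94 ± 1.28 (SD, n = 3; 0.00284 as block-adjusted p) and Lce3c, a late envelope protein, had 1.79 ± 0.83 (0.0278). On the other side loricrin (Lor), the most abundant envelope protein, had -1.67 ± 0.45 (0.00544), filaggrin (Flg), which bundles keratin, had -2.23 ± 0.86 (0.0198), and the late envelope genes Lce1m and Lce1c had -2.56 ± 0.80 (0.00839) and -1.17 ± 0.55 (0.0340). Involucrin, a scaffold of the envelope, had -0.39 ± 0.17 and did not pass (block-adjusted p = 0.103). The sides of Lor and the Sprr2 genes thus differed in every pair, with Lor at -1.18, -1.80 and -2.05 in pairs 1, 2 and 3.

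Of 7 measured cross-linking enzymes 0 passed in limma or with the block. In limma 2 positive and 2 negative had an unadjusted p under 0.05 (backgrounds 5.92% and 6.41%). Tgm3 and Tgm1, the transglutaminases that join envelope proteins, had 0.93 ± 0.55 and 0.76 ± 0.59 (SD, n = 3; block-adjusted p = 0.0575 and 0.100), and pair 1 was low for both, with 0.30 and 0.10. Tgm5, another epidermal transglutaminase, had 0.42 ± 0.46. Tgm2 and Tgm6 had -0.16 ± 0.03 and -0.28 ± 0.26, and F13a1, the plasma transglutaminase of clotting, had 0.38 ± 0.48. Without pair 1, limma passed 2 of them positive and 1 negative (backgrounds 3.22% and 1.67%).

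Of 34 measured transcription regulators that have been linked to Sprr promoters or to epidermal differentiation, 0 passed in limma or with the block, and 8 positive and 1 negative had an unadjusted p under 0.05 (backgrounds 5.92% and 6.41%). The list median was 0.07, with 23 positive means and 11 negative ones. The Ets-family genes Ehf and Elf3, which act in epithelia, had 0.88 ± 0.69 and 0.38 ± 0.31 (SD, n = 3). Fosl1, an AP-1 subunit, had 0.46 ± 0.33, Klf4, a barrier factor, had 0.46 ± 0.50, and Nfe2l2, the factor of the antioxidant response, had 0.28 ± 0.23. Stat3 had 0.67 ± 0.46, Cebpd 0.30 ± 0.15 and Cebpb 0.25 ± 0.16. Pair 1 was the lowest pair for each of these 8 named genes. They are not quite the 8 counted above. Klf4 was named in advance and did not reach that threshold (limma unadjusted p = 0.0594). Klf5 did, at 0.27 ± 0.25 (SD, n = 3; limma unadjusted p = 0.049). The negative gene, picked after its values were seen, was Cebpa, of the same C/EBP family as Cebpb and Cebpd, at -0.42 ± 0.39 (SD, n = 3; -0.13, -0.25 and -0.86 in pairs 1, 2 and 3). Without pair 1, limma passed 7 regulators, all positive (background 3.22%).

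The genes outside the members whose values came closest to the mean Sprr profile were found by the root mean square difference over the 6 arrays. That profile was 1.89 and 1.61 (pair 1), 3.02 and 3.14 (pair 2), then 3.08 and 3.19 (pair 3). It averages all members, so Sprr1a and Sprr3, which lay near 0, lower it. The closest were the stefin gene Stfa2l1 (0.244 apart on the log2 scale), Il1f6, which encodes the cytokine IL-36 alpha (0.246), and the ribonuclease gene Ear6 (0.420). They were followed by the beta-defensin Defb6 (0.450), Rnase2b (0.462), the alarmin Il33 (0.476), Sprr2i (0.502) and the cadherin Cdh7 (0.527). Single members lay 0.469 (Sprr2a1) to 2.87 (Sprr1a) from the same profile. Stfa2l1, Il1f6, Ear6, Defb6 and Rnase2b were nearer to it than any member. Nearness to this mean is therefore not likeness to a single Sprr gene.

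Markers of other cells were read as ratios, since the files give no levels. Stress keratinocyte markers (3 measured) had a median of 2.49, with 2.38, 2.43 and 2.68 in pairs 1, 2 and 3, and suprabasal markers (6 measured) had -0.53. Neutrophil markers were positive in 12 of 12, with a median of 0.46 (0.22, 0.61 and 0.50 by pair), and macrophage markers in 12 of 13, with 0.40 (-0.08, 0.53 and 0.74 by pair) (43.9% of all rows). On the pair values, 2 neutrophil, 0 macrophage, 1 stress keratinocyte and 0 suprabasal markers passed in limma (background 0.0175%). The 2 neutrophil markers were S100a8 and S100a9, the alarmin genes named above among those before the Sprr run. Bulk skin RNA does not show which cells these transcripts came from, so their ratios are not a measure of neutrophils. With the block, 3 neutrophil, 0 macrophage, 2 stress keratinocyte and 0 suprabasal markers passed (background 0.603% positive). The neutrophil marker added by the block was Csf3r (0.38, block-adjusted p = 0.0486). The part of these cell types in the Sprr ratios was not tested.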

How the data were processed

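Skin RNA was extracted with Qiagen and labelled with Ambion reagents, per the labels' protocols. The authors deposited log2 ratios of 25344 probes on each array. Their base was assumed, and the labels do not state the scanner, background correction or normalization. Every column had a mean of 0. Of probes at least 1 from 0 on both arrays of a dye swap, 40 of 51 in pair 1, 188 of 200 in pair 2 and 199 of 206 in pair 3 had the same sign on both, so no array was turned. From probe 21000 on, where Sprr2e and Sprr2g lie, 98.6% of rows carry at most 3 digits. One array, of pair 2, bears another date in the labels than the other 5, and the fit was repeated on those 5, an alternative added after seeing the data.

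Probes with 1 symbol in the platform annotation (21082; 30 had several, 4232 none) were averaged per symbol, and the others were kept as rows. The 2 arrays of a pair, which hold the same mice per the labels, were averaged. The mean of 3 pairs was tested against 0 in limma 3.58.1 (R 4.3.3; lmFit, eBayes) with Benjamini-Hochberg adjustment over 22879 rows. The block fit used duplicateCorrelation (consensus correlation 0.151), which gives all rows 1 correlation although Sprr genes vary mostly between pairs. The mice are named as separate animals, so SDs hold biological and technical spread, and the number of arrays limits precision.

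Members and lists were chosen with earlier results of these data known. Named genes were all Sprr genes with a row, up to 6 genes per list by p with 10 preset ones, and the 8 genes nearest the mean Sprr profile. Promoters came from RefSeq and were aligned with Biopython 1.88, and figures used matplotlib 3.10.9.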

Additional observations from a re-analysis of the deposited data

Results flagged for a closer look

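Sprr1a took opposite signs in the 2 dye orientations: it was positive on all 3 arrays with LynDN in Cy3 (mean log2 ratio 0.24) and negative on all 3 with LynDN in Cy5 (mean -0.42). The difference of -0.65 was -0.68, -0.91 and -0.37 in pairs 1, 2 and 3, and in limma on these 3 differences its adjusted p was 0.0798. Such a split of signs by dye was found in 11.4% of all rows, and 0.573% of rows passed that test. Sprr1b also had the lower value on the array with LynDN in Cy5 in every pair (mean difference -0.52, limma adjusted p = 0.0761), while remaining positive throughout.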

How the results depend on the processing

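Counts of passing genes moved with how the pairs and dyes entered the fit. With the pair as a replicate block 8 Sprr members, 7 structural partners and 243 rows passed, against 0, 0 and 4 on the pair values. Quantile normalization between arrays gave 7 members, 4 partners and 79 rows, and scaling arrays to one median absolute deviation gave 1 member (Sprr2a1). Arrays with LynDN in Cy3 alone gave 5 members, 1 partner and 54 rows, and those with LynDN in Cy5 alone gave 3 members, 2 partners and 24 rows. Without variance moderation 0 rows passed. Leaving out 1 mouse pair moved the count from 0 to 8 for members, from 0 to 11 for partners, from 0 to 3 for cross-linking enzymes, from 0 to 7 for regulators and from 2 to 1117 for all rows, the highest each time without pair 1. The member median stayed between 2.98 and 3.82 over the 15 alternatives, and the 8 members with large ratios kept a positive sign in each. On the 5 arrays of one date, an alternative chosen after seeing the data, 0 members and 4 rows passed, with a member median of 3.29. Signs near 0 turned on those 5 arrays for Sprr1a (0.06), with LynDN in Cy3 alone for Sprr1a (0.24) and Sprr4 (0.05), and when 1 pair was left out for Sprr1a (-0.17 to 0.01), Sprr3 (-0.03 to 0.06) and Sprr4 (-0.46 to 0.00). With 3 pairs, exact tests cannot go below 0.25.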

Other observations

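Lists for other parts of skin lay closer to 0 than the Sprr genes. Hair follicle markers were negative in 17 of 18 measured genes (56.1% of all rows), with a median log2 ratio of -0.43 (0.07, -0.61 and -0.55 in pairs 1, 2 and 3), and 0 passed in limma on the pair values. With the pair as a block 3 passed negative (background 0.459%), the hair keratin genes Krt33a (-0.98) and Krt34 (-0.68) and the keratin gene Krt23 (-0.54). Basal keratinocyte markers had a median of 0.32 over 10 genes, and 0 passed on the pair values. With the block Krt14 (1.34) and Itgb4 (0.47) passed positive and Krt15 (-1.36) passed negative (backgrounds 0.603% and 0.459%). Fibroblast (7 genes, -0.12), adipocyte (6, -0.16), skeletal muscle (7, -0.27), sebocyte (7, 0.04) and T cell markers (8, -0.06) had 0 genes passing in limma or with the block.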
